A study of Mus musculus with 15 samples.

Results

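Mouse epiblast stem cells (EpiSC) that differentiated without added morphogens were measured for mature miRNAs at day 14 and at day 9, on 3 arrays each. These 6 arrays are those labelled as control day 14 and control day 9, out of 15 in the series. EpiSC are pluripotent cells of the kind found in the embryo just before gastrulation, and these came from Pitx3-GFP mice, in which GFP marks a gene of midbrain dopaminergic neurons. The groups used were control cells at day 14 and control cells at day 9, both grown without SHH and FGF8, and, for a single comparison, treated cells at day 14 and at day 9, which received both morphogens from day 5. Cells at day 5, before any addition, gave a level at the start. All groups share the Pitx3-GFP line and the same differentiation course, each had 3 arrays, and no sorting of cells is described for these samples. The labels do not say whether the 3 replicates of a group were separate cultures, so p-values measure the spread between these samples, which may be technical.

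A miRNA is an RNA of about the length of a primer that guides the Argonaute protein to partly matching messenger RNAs and lowers their output. Pairing runs mainly through the seed, the bases near its 5′ end, so miRNAs with the same seed share most targets and form a family. In stem cells of the epiblast the miR-302 cluster is abundant, and the miR-17-92 cluster supports proliferation. The let-7 family is kept low in pluripotent cells by LIN28, which blocks the processing of its precursors, and rises as cells differentiate, while miR-124 and miR-9 accumulate in the neural lineage.

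The sequences of the miRNAs on which the results turn are given here from RefSeq (assembly GRCm38.p6), 5′ to 3′, with the seed (bases 2 to 8) in capitals. Of the 306 miRNAs tested, 227 matched a RefSeq entry by name, and of the 166 that changed, 129 did. The let-7 family is shown first because all of its 9 tested members share the seed GAGGUAG and all were higher at day 14; any pair of them differs at 1 to 6 positions, none of them in the seed, so that probes for close members may share signal.
let-7b-5p: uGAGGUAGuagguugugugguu
let-7c-5p: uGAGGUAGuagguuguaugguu
let-7a-5p: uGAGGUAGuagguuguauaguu
let-7i-5p: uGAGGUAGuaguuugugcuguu
let-7g-5p: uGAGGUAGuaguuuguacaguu
miR-98-5p: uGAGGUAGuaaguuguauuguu

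The next set comes from the miR-17-92 cluster and its paralogs, which were lower at day 14. The members carry 4 seeds between them: AAAGUGC in the miR-17 and miR-20 group, AAGGUGC in miR-18, GUGCAAA in miR-19, and AUUGCAC in miR-92a and miR-363.
miR-17-5p: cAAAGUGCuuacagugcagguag
miR-20a-5p: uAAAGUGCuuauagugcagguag
miR-18a-5p: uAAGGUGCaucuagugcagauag
miR-19a-3p: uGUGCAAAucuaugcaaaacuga
miR-92a-3p: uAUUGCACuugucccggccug
miR-363-3p: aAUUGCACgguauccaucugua

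The last sets are shown because miRNAs with a shared seed or a shared hairpin gave different values. miR-132-3p and miR-212-3p have the seed AACAGUC in common, miR-181a-5p and miR-181b-5p the seed ACAUUCA, and miR-322-5p and miR-15b-5p the seed AGCAGCA. The arms of miR-129 and miR-137-3p are neuronal miRNAs with large increases.
miR-132-3p: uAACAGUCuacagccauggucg
miR-212-3p: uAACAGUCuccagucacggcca
miR-181a-5p: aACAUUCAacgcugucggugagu
miR-181b-5p: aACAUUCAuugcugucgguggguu
miR-322-5p: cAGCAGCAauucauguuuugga
miR-15b-5p: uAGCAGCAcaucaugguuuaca
miR-129-2-3p: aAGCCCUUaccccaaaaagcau
miR-129-5p: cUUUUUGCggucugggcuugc
miR-137-3p: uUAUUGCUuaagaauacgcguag

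The values below are scaled log2 signals: the background-subtracted intensity of a miRNA's brightest probe, relative to the 75th percentile on that array of 353 probes that were above background throughout the series. Values were held at a floor of -4.27, and a value of -4.27 says only that the signal was at or under it. A level can be compared between arrays for 1 miRNA, but not between miRNAs, since probes differ in brightness. The 75th percentile of signal was 282, 215 and 268 intensity units at day 14, against 220, 268 and 267 at day 9, and 259, 260 and 272 of 1122 mouse miRNAs were above background on the day 14 arrays, against 243, 257 and 255 on the day 9 arrays. No spot was saturated (0 on each array). Replicates correlated at 0.989 to 0.995 at day 14 and 0.994 to 0.998 at day 9, against 0.940 to 0.954 between the days (Pearson, across 306 miRNAs, which are not independent replicates). The first principal component, with 85.7% of the variance among the 6 arrays, separated the days. All 6 arrays lie on 1 slide, but those of day 14 fill its second row and those of day 9 its first, so that row and day cannot be told apart. The hybridisation spike-in was 4.16, 4.24 and 4.21 (log10) at day 14, all above the 4.02, 4.14 and 4.10 at day 9, and its part in the results was not tested. The labelling spike-in overlapped, with 2.82, 2.77 and 2.86 at day 14 against 2.71, 2.84 and 2.77 at day 9.

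The comparison asked how the miRNAs of these cells changed over the later part of differentiation when no patterning signal was given. The let-7 family and most neuronal miRNAs rose, and miR-17-92 with its paralogs, the miR-130 and miR-301 miRNAs and miR-15b-5p fell. Of 306 miRNAs tested, 96 were higher at day 14 (31.4%) and 70 were lower (22.9%), so that 54.2% were called (limma, Benjamini-Hochberg adjusted p below 0.05), and 179 passed without adjustment. Among the calls 54 were over 2-fold, 34 higher and 20 lower. The number over 2-fold moved with the background correction and the floor: 16 calls were over 2-fold with the normexp background correction, and 28 with a floor 4 times higher. The arrays of the days did not overlap for 178 miRNAs (58.2%). With normexp some list medians were also nearer 0, at 0.45 for the neuronal list, -0.56 for miR-17-92 with paralogs and -0.39 for miR-34. The median change over all 306 was 0.06 on the log2 scale, with quartiles at -0.23 and 0.41. The split between higher and lower calls moved with the scaling. It was 70 higher and 90 lower with the 75th percentile of all mouse probes, and 66 and 114 with the median of the probes above background. Both fewer cells of a type and less RNA per cell would lower a miRNA in such bulk samples, and these cannot be told apart.

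**Figure D1:**
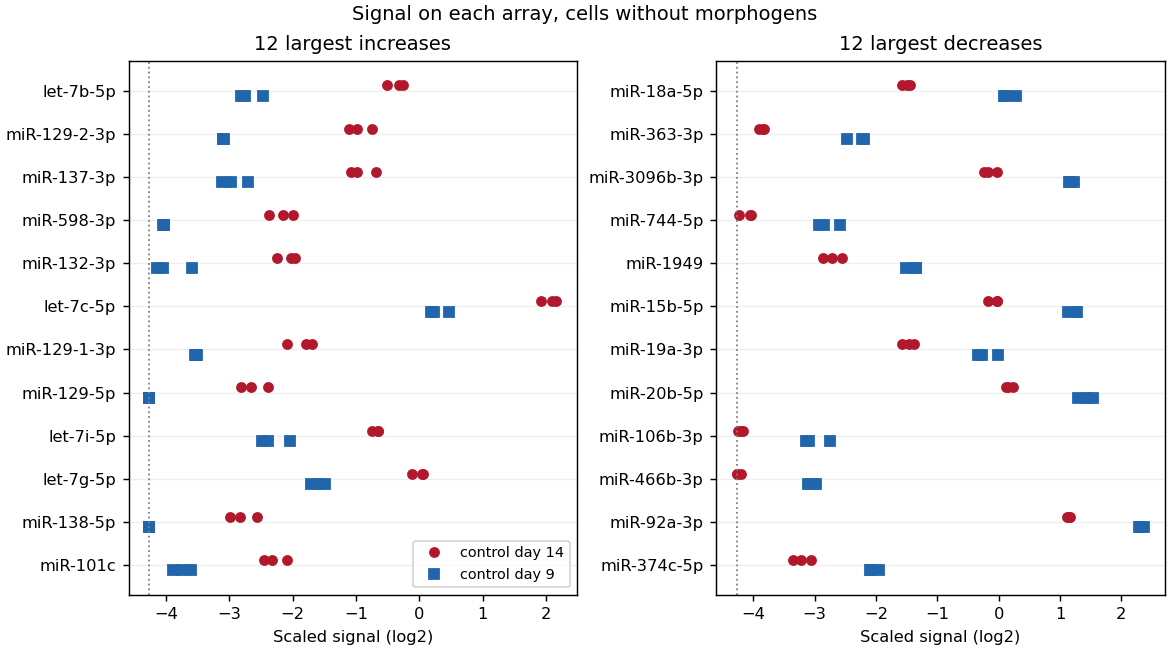
Scaled log2 signal (x axis) of the 12 miRNAs with the largest increase (left) and the 12 with the largest decrease (right), with 1 point per array. Red circles are the 3 control day 14 arrays, blue squares the 3 control day 9 arrays, and the dotted line is the floor at -4.27. In every row the points of the days stand apart, and the day 9 squares of miR-129-5p and miR-138-5p lie on the floor.

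All 9 tested members of the let-7 family rose, beside the 31.4% of all miRNAs that did, with a median change of 1.44. The family holds cell cycle and pluripotency factors down in differentiated cells. let-7b-5p read -0.51, -0.32 and -0.26 on the day 14 arrays, against -2.47, -2.81 and -2.75 on the day 9 arrays. Its days were far apart relative to the spread within each, and it was 4.95-fold higher at day 14 (log2 change 2.31, SE 0.11, adjusted p = 1.7e-09, limma), the largest fitted increase of the 306 miRNAs tested; increases from below background at day 9 are lower bounds and cannot be ranked against it. let-7c-5p read 1.93, 2.10 and 2.16 at day 14, against 0.47, 0.18 and 0.24 at day 9, and was 3.40-fold higher (log2 change 1.77, SE 0.11, adjusted p = 1.1e-08, limma). let-7i-5p, at -0.75, -0.65 and -0.66 at day 14 against -2.05, -2.39 and -2.48 at day 9, was 3.07-fold higher. let-7g-5p, at -0.11, 0.05 and 0.04 at day 14 against -1.49, -1.61 and -1.71 at day 9, was 3.02-fold higher. In each of these 4 the lowest day 14 array lay well above the highest day 9 array.

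The other let-7 members moved less. let-7f-5p rose by 1.44, let-7a-5p by 1.34, let-7d-5p by 1.26 and let-7e-5p by 1.08 on the log2 scale (SE 0.09 to 0.15). miR-98-5p, a let-7 family member under another name, was above background on 3 of 3 arrays at day 14 and on 0 of 3 at day 9, an increase of at least 1.18-fold (adjusted p = 0.0047, limma). An "at least" fold sets the day 14 mean against the lowest signal that counted as above background on the day 9 arrays. The summed level of the list ran from 3.67 to 3.92 at day 14, against 2.29 to 2.55 at day 9 (log2 of summed scaled signals). Here and below, such a sum takes every member on the array, those not above background included, with values held at the floor. All 9 were also called higher with each of the 3 other scalings between arrays, and 8 of 9 with none. At day 5, let-7b-5p, let-7g-5p and let-7i-5p were at the floor on average and let-7c-5p was at -4.05, on arrays of the other slide.

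The let-7 hairpins lie at several places in the genome, and neighbouring let-7 members all rose (coordinates and strands are those of GRCm38.p6). let-7a-1, let-7f-1 and let-7d sit at chr13:48536012-48538272 on the minus strand, and all 3 products rose. let-7c-2 and let-7b sit at chr15:85706603-85707403 on the plus strand. let-7e and miR-125a sit at chr17:17830352-17830879 on the plus strand, where let-7e-5p rose by 1.08, miR-125a-5p by 1.17 and miR-125a-3p by 0.81, but miR-99b-5p, beside them at chr17:17830194-17830215 on the plus strand, was not called (0.20, adjusted p = 0.13, limma). miR-99a and let-7c-1 sit at chr16:77598936-77599750 on the plus strand, where miR-99a-5p rose by 0.78. A mature sequence made from more than 1 hairpin, such as let-7c-5p, cannot be assigned to either place from its signal.

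**Figure D2:**
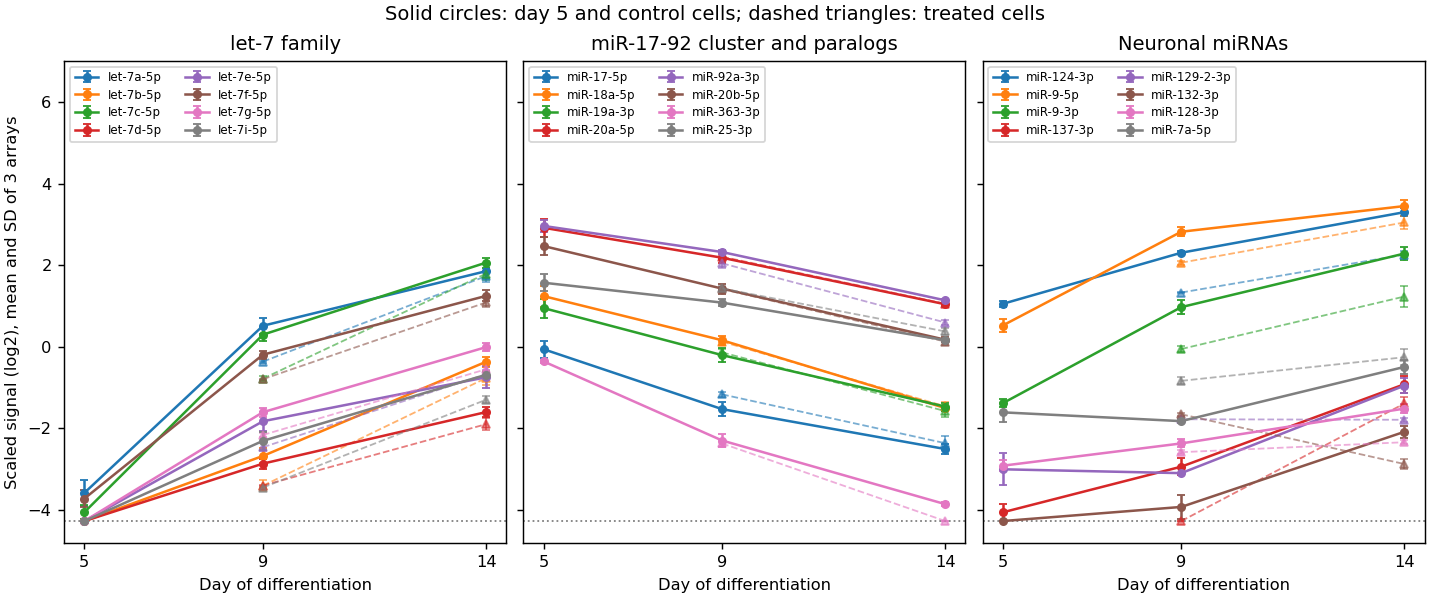
Mean scaled log2 signal (y axis) with SD over 3 arrays, against the day of differentiation (x axis), for 8 miRNAs each of the let-7 family, the miR-17-92 cluster with paralogs, and the neuronal list. Solid lines with circles are day 5 and control cells, dashed lines with triangles treated cells, and the dotted line is the floor at -4.27. All control arrays lie on 1 slide. The arrays of day 5, treated day 9 and treated day 14 replicates 1 and 2 lie on the other. In control cells the let-7 members are higher at day 14 than at day 9 and the miR-17-92 members lower. The line of miR-132-3p rises from day 9 to day 14 in control cells and falls in treated cells.

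Neuronal miRNAs were the other large group that rose. Of 47 on the array, 23 were above background on at least 1 of the 6 arrays, 24 were tested, 19 rose, 2 fell and 3 were not called, with a median change of 0.90 against 0.06 for all miRNAs. The shares called, 79.2% higher and 8.3% lower, stood beside 31.4% and 22.9% of all miRNAs. The summed level of the list was 4.95 to 5.19 at day 14, against 4.21 to 4.33 at day 9. miR-124-3p, abundant in neurons and in few other cells, read 3.19, 3.40 and 3.30 at day 14, against 2.30, 2.34 and 2.26 at day 9, a 1.99-fold increase (log2 change 0.99, SE 0.07, adjusted p = 2.9e-08, limma). Its days did not overlap, and it was already clearly above background at day 9. miR-9-5p, of neural progenitors and neurons, read 3.30, 3.60 and 3.45 at day 14, against 2.79, 2.93 and 2.73 at day 9 (log2 change 0.63, SE 0.11, adjusted p = 1.5e-04, limma), and was not called without scaling between arrays (0.65, adjusted p = 0.094, limma). The other arm of the same hairpins, miR-9-3p, read 2.12, 2.30 and 2.44 at day 14, against 0.82, 1.16 and 0.93 at day 9 (log2 change 1.31, SE 0.13, adjusted p = 9.6e-07, limma). No difference between the arms was tested.

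The largest neuronal increases were in miRNAs that were low or below background at day 9. miR-129-2-3p read -1.11, -0.75 and -0.99 at day 14, against -3.10, -3.09 and -3.10 at day 9, and was 4.42-fold higher (log2 change 2.14, SE 0.15, adjusted p = 2.8e-08, limma). miR-129-1-3p, the same arm of a second hairpin, read -2.08, -1.69 and -1.79 at day 14, against -3.51, -3.54 and -3.53 at day 9, and was 3.19-fold higher. miR-129-5p, which both hairpins produce with the same sequence, was above background on 3 of 3 arrays at day 14 with -2.81, -2.39 and -2.66, and on 0 of 3 at day 9. The increase was 2.96-fold or more ("at least" in the sense above; adjusted p = 4.1e-09, limma), so all 3 tested miR-129 arms rose. In RefSeq the hairpins lie on different chromosomes, miR-129-5p being at chr2:94241419-94241439 on the minus strand and at chr6:29022624-29022644 on the plus strand.

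miR-137-3p, a regulator of neural stem cell proliferation and of synaptic genes, read -1.08, -0.69 and -0.99 at day 14, against -3.12, -2.71 and -2.98 at day 9, and was 4.06-fold higher (log2 change 2.02, SE 0.13, adjusted p = 2.2e-08, limma). miR-598-3p read -2.37, -1.99 and -2.15 at day 14, against -4.05, -4.03 and -4.03 at day 9, close to the floor, and was 3.65-fold higher. miR-138-5p, which acts at dendritic spines, read -2.99, -2.56 and -2.83 at day 14 and was above background on 0 of 3 arrays at day 9, which bounds the increase at 2.62-fold or more (adjusted p = 1.7e-08, limma). In the deposited value table, without the removal of outlier spots, the change of miR-138-5p was 0.47 (adjusted p = 0.60, limma). miR-7b-5p was at least 2.27-fold higher and miR-551b-3p at least 1.81-fold, both below background at day 9. These increases started from the floor of the measurement, so their true size is not known.

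miR-132-3p and miR-212-3p come from neighbouring hairpins at chr11:75173388-75173747 on the plus strand, a locus that CREB activates in stimulated neurons. miR-132-3p read -2.25, -1.97 and -2.03 at day 14, against -3.59, -4.04 and -4.13 at day 9, and was 3.58-fold higher (log2 change 1.84, SE 0.12, adjusted p = 2.0e-08, limma). miR-212-3p read -3.60, -3.17 and -3.26 at day 14, against -3.54, -3.33 and -3.22 at day 9, and its days overlapped (log2 change 0.02, SE 0.26, adjusted p = 1, limma). At day 5 miR-132-3p was at the floor and miR-212-3p at -1.40, on arrays of the other slide.

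Further members rose by less. miR-7a-5p, which represses alpha-synuclein, read -0.69, -0.38 and -0.41 at day 14, against -1.87, -1.77 and -1.82 at day 9 (log2 change 1.33, SE 0.12). miR-128-3p, of postmitotic neurons, rose by 0.85 (SE 0.08). miR-218-5p, of motor neurons, rose by 0.35 (SE 0.10, adjusted p = 0.010, limma), a call that ended with 3 other scalings, where the change was 0.07 to 0.19, and without scaling. The 2 members that fell were miR-149-5p and miR-124-5p, each the other arm of a hairpin whose 3p arm rose. miR-149-5p changed by -0.64 while miR-149-3p rose by 0.84. miR-124-5p, above background on 1 of 3 arrays at day 14 and 3 of 3 at day 9, changed by -0.47 while miR-124-3p rose. The number of neuronal members called lower was 1 without scaling and 1 with the mean of probes. It was 0 with normexp and 0 with a floor 4 times higher.

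Of the neural progenitor list, 18 of 34 were tested, 10 rose, 5 fell and 3 were not called (median 0.33). These are 55.6% and 27.8% of the list, beside 31.4% and 22.9% of all miRNAs, so the share that fell was near that of all miRNAs. The rises were in miR-125, miR-99 and miR-100, which are transcribed with let-7 hairpins, and in members of miR-181 and miR-135. miR-125b-5p, which targets LIN28, read 4.53, 4.76 and 4.73 at day 14, against 3.61, 3.48 and 3.36 at day 9 (log2 change 1.19, SE 0.10, adjusted p = 3.1e-07, limma). The lowest day 14 array was well above the highest day 9 array. miR-135a-5p, linked to Wnt signalling and midbrain size, rose by 1.27 (SE 0.15), miR-99a-5p by 0.78 (SE 0.06) and miR-100-5p by 0.64, while miR-99b-5p differed by 0.20 (SE 0.10, adjusted p = 0.13, limma). The decreases included miR-92b-3p at -1.06 (SE 0.16), and miR-25-3p and both arms of miR-106b, which are also paralogs of miR-17-92. Members of both lists are the same measurements counted under 2 names.

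The miR-181 family split by member. miR-181a-5p read 0.21, 0.27 and 0.28 at day 14, against -0.42, -0.32 and -0.40 at day 9 (log2 change 0.63, SE 0.08, adjusted p = 1.2e-05, limma). miR-181b-5p, from the hairpin next to it at both loci (chr1:137966455-137966718 and chr2:38852735-38853918, plus strand), read -0.71, -0.66 and -0.62 at day 14, against -0.12, -0.22 and -0.29 at day 9 (log2 change -0.45, SE 0.07, adjusted p = 5.9e-05, limma). The days did not overlap for either, in opposite directions, and neither was called without scaling between arrays (adjusted p = 0.057 and 0.22, limma). miR-181c-5p rose by 0.38 and lost the call with 3 other scalings (0.02 to 0.21), and miR-181d-5p differed by -0.17 (adjusted p = 0.13, limma).

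**Figure D3:**
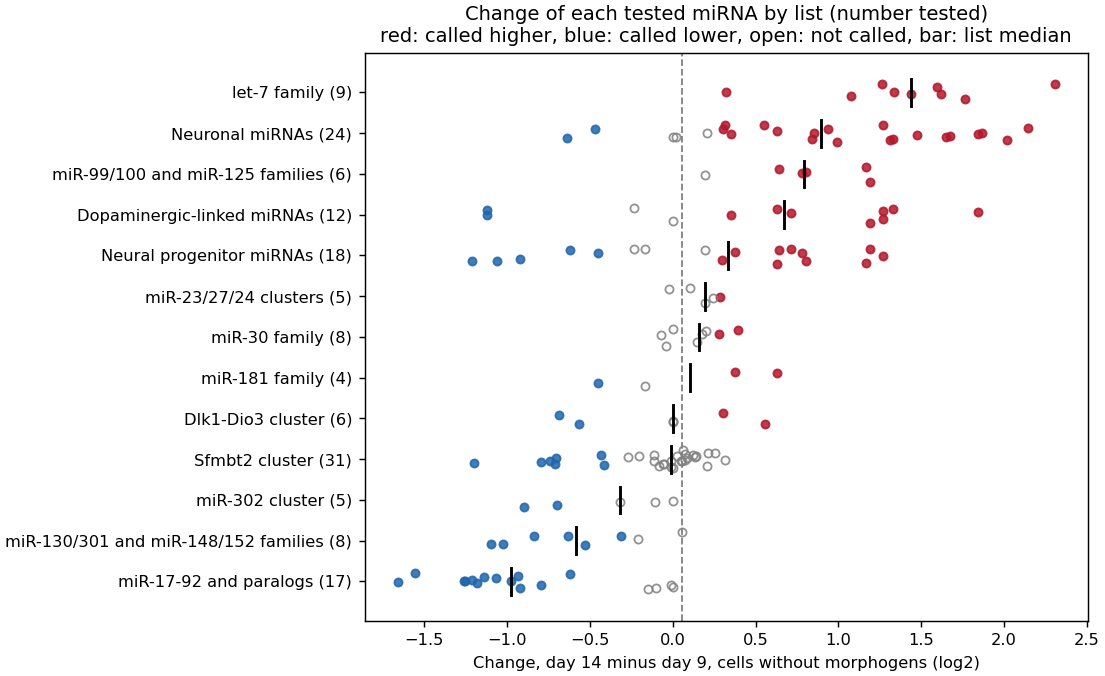
Log2 change from day 9 to day 14 in control cells (x axis) of each tested miRNA, in rows by list with the number tested, for lists with at least 4 tested members. Red points were called higher, blue points called lower and open points not called; black bars are list medians and the dashed line is the median of all 306 miRNAs at 0.06. The let-7 row lies wholly to the right, at a median of 1.44, and the called points of the miR-17-92 row lie to the left, at a list median of -0.98.

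The miR-17-92 cluster and its paralogs, which drive cell cycle entry and block apoptosis in proliferating progenitors, fell. Of 27 on the array 16 were above background on at least 1 of the 6 arrays and 17 were tested; 13 fell and 0 rose, beside 22.9% of all miRNAs that fell, and the median was -0.98. The 4 not called, miR-18a-3p, miR-18b-5p, miR-18b-3p and miR-20a-3p, were above background on 0 of 3 arrays at day 14 and on 0 to 2 of 3 at day 9. The summed level was 3.80 to 3.90 at day 14, against 4.78 to 4.94 at day 9. miR-18a-5p, with the largest fitted decrease of the 306 miRNAs, read -1.49, -1.57 and -1.44 at day 14, against 0.09, 0.29 and 0.11 at day 9, and was 3.16-fold lower (log2 change -1.66, SE 0.11, adjusted p = 2.0e-08, limma). miR-363-3p read -3.91, -3.84 and -3.82 at day 14, against -2.48, -2.22 and -2.19 at day 9, and was 2.95-fold lower (log2 change -1.56, SE 0.07, adjusted p = 1.7e-09, limma). miR-92a-3p read 1.15, 1.16 and 1.11 at day 14, against 2.37, 2.31 and 2.28 at day 9, and was 2.27-fold lower (log2 change -1.18, SE 0.08, adjusted p = 2.6e-08, limma). In all 3 the replicates of a day lay close together and the days were more than 1 log2 unit apart.

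By genomic place, the cluster at chr14:115043671-115044506 on the plus strand had 9 tested products and 7 of them fell. After miR-18a-5p and miR-92a-3p these were miR-19a-3p at -1.26, miR-20a-5p at -1.14, miR-17-3p at -1.07, miR-17-5p at -0.98 and miR-19b-3p at -0.93 (SE 0.07 to 0.12). The remaining products were miR-18a-3p and miR-20a-3p. The miR-106b-25 cluster at chr5:138165321-138165818 on the minus strand had 4 tested products and all fell, miR-106b-3p at -1.21, miR-25-3p at -0.92, miR-93-5p at -0.79 and miR-106b-5p at -0.62. miR-106b-3p was above background on 2 of 3 arrays at day 14. The X-linked cluster at chrX:52741693-52742413 on the minus strand had 6 tested products and 4 fell, among them miR-363-3p and miR-20b-5p, which changed by -1.25. miR-19b-3p and miR-92a-3p are made by hairpins of both the chromosome 14 and the X-linked cluster, so their values count for both. At least 12 members of the list were called lower with each of 3 other scalings, with no scaling and with another background correction, and 0 were called higher.

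Seen by seed, 21 seeds were shared by at least 2 tested miRNAs with a RefSeq sequence. All members were called higher for 3 of them, GAGGUAG of let-7, CCCUGAG of miR-125 and GGAAGAC of miR-7. All were called lower for 2, AAAGUGC with 5 members of the miR-17 family and GUGCAAA of miR-19. Of the 6 with AUUGCAC, the seed of miR-92a, 5 fell and miR-32-5p was below background on all 6 arrays. Members went both ways for 3 seeds: ACAUUCA of miR-181, AGUGCAA of miR-130 and miR-721, and AGCAGCA. In the AGCAGCA family of miR-15 and miR-16, which restrain the cell cycle, miR-322-5p rose by 1.06 (SE 0.10), and miR-15b-5p fell to -0.17, -0.02 and -0.03 at day 14, against 1.28, 1.26 and 1.13 at day 9 (log2 change -1.30, SE 0.10, adjusted p = 6.0e-08, limma). miR-16-5p changed by -0.56 and miR-15a-5p by -0.45. The miR-15b and miR-16-2 hairpins are neighbours at chr3:69009772-69009996 on the plus strand, and miR-322 lies with the miR-450a hairpins at chrX:53048154-53054349 on the minus strand.

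**Figure D4:**
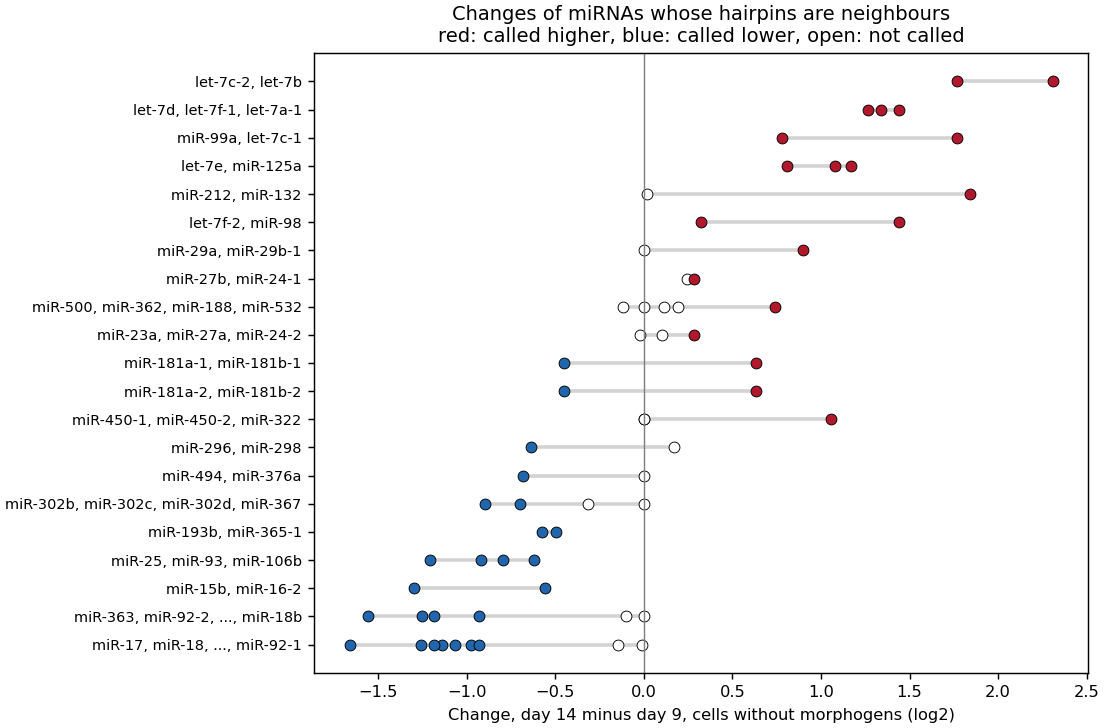
Log2 change from day 9 to day 14 in control cells (x axis) of tested miRNAs whose hairpins lie within 10 kb on the same strand, with 1 row per genomic cluster that held at least 1 call, named by its hairpins. Red points were called higher, blue points called lower and open points not called, and grey lines span each row. The let-7 rows lie right of 0, the miR-17-92, miR-106b-25 and X-linked rows left of it, and the rows of miR-181a with miR-181b span it.

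The miR-130, miR-301, miR-148 and miR-152 miRNAs, whose seeds resemble that of miR-19, had 8 tested members, of which 6 fell and 0 rose (median -0.58). The 75% that fell stood beside 22.9% of all miRNAs. The number called lower moved with the processing: it was 3 without scaling, 3 with normexp and 3 with a floor 4 times higher. It was 7 with the 75th percentile of all mouse probes. miR-721, not in this list, has the seed AGUGCAA of miR-130a-3p, miR-130b-3p and miR-301a-3p, and was called higher at 0.28. miR-130b-3p read 0.01, 0.18 and 0.10 at day 14, against 1.14, 1.15 and 1.07 at day 9 (log2 change -1.03, SE 0.07, adjusted p = 3.2e-08, limma), and miR-130b-5p changed by -1.10. miR-301b-3p changed by -0.84, miR-152-3p by -0.64, miR-130a-3p by -0.53 and miR-301a-3p by -0.31. miR-148a-3p and miR-148b-3p overlapped between the days.

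miR-34b-5p and miR-34c-5p, made from a shared transcript that p53 activates and known also from ciliated and dopaminergic cells, both fell. miR-34b-5p read -3.82, -3.68 and -3.56 at day 14, against -2.70, -2.45 and -2.55 at day 9 (log2 change -1.12, SE 0.12, adjusted p = 2.0e-06, limma). miR-34c-5p read -3.77, -3.54 and -3.86 at day 14, against -2.67, -2.55 and -2.59 at day 9 (log2 change -1.12, SE 0.11, adjusted p = 7.6e-07, limma). The arrays of the days stood apart in both. Their means at day 5 were -1.23 and -1.27, on arrays of the other slide. The other 9 of 11 arms of this family and of the related miR-449 on the array were above background on 0 of 6 arrays.

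A list of miRNAs that other work ties to dopaminergic neurons had 25 on the array, and 12 were above background on at least 1 of the 6 arrays. Of these 25, 12 were tested, 8 rose, 2 fell and 2 were not called (median 0.67). These are 66.7% and 16.7% of the tested members, beside 31.4% and 22.9% of all miRNAs. The share that fell was thus below that of all miRNAs. All of the risers are also members of the neuronal or neural progenitor lists, among them miR-132-3p, miR-7a-5p and miR-135a-5p, and the 2 that fell were miR-34b-5p and miR-34c-5p. These lists overlap, so their counts are not separate. With normexp 5 members of the dopaminergic list were called higher. Both arms of miR-133b, also on that list, were above background on 0 arrays of either day.

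The labels give EpiSC as the cell type at both days. Of the epiblast and stem cell markers, miR-302d-3p read -3.26, -3.41 and -3.43 at day 14, against -2.76, -2.33 and -2.31 at day 9 (log2 change -0.90, SE 0.16, adjusted p = 2.5e-04, limma). It averaged 0.09 at day 5, on arrays of the other slide. miR-367-3p, of the same cluster, fell by 0.70 (SE 0.17, adjusted p = 0.0025, limma). miR-302a-3p was above background on 0 of 3 arrays at day 14 and 2 of 3 at day 9, and miR-302b-3p, miR-294-3p and miR-295-3p on 0 of 6. In the whole miR-302 list 2 of 5 tested members fell (40%, beside 22.9% of all miRNAs) and 0 rose. Its summed level was -0.77 to -0.71 at day 14 and -0.53 to -0.34 at day 9. Of the 10 members on the array that enter this sum, 4 were above background on any of the 6 arrays. The neuronal markers miR-124-3p, miR-9-5p and miR-128-3p were above background on all 6 arrays. A further neuronal marker, miR-138-5p, was above background on 0 of 3 arrays at day 9. At both days the arrays thus carried miR-124-3p, miR-9-5p and miR-128-3p, of which miR-9-5p is also found in neural progenitors. Of the epiblast markers, miR-302d-3p, miR-367-3p and, on 2 of 3 arrays, miR-302a-3p gave signal at day 9. How well the EpiSC label describes the cells was not tested. The call of miR-302d-3p ended without scaling between arrays (adjusted p = 0.081, limma), and in the miR-290 cluster 0 of 2 tested members were called.

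Markers of other cell types were few. Of 11 mesenchymal miRNAs on the array 1 was above background on any of the 6 arrays, miR-21-5p, which changed by -0.31 (SE 0.12, adjusted p = 0.039, limma), while both arms of miR-145, miR-143 and miR-214 were at 0 of 6. Its call ended without any 1 of the day 14 arrays or of day 9 replicates 1 and 2 (-0.34 to -0.27). The summed mesenchymal level, in which the members not above background also count, was 0.10 to 0.17 at day 14, against 0.27 to 0.35 at day 9. Of 17 endoderm miRNAs 1 was above background, miR-216a-5p, at least 1.24-fold lower at day 14, where it was above background on 0 of 3 arrays, and miR-375-3p, miR-122-5p and miR-192-5p were at 0 of 6. Of 5 glial miRNAs 2 were above background: miR-338-3p rose by 0.81 (SE 0.10) and miR-219-5p changed by -0.38 (SE 0.11), with a summed level of 0.78 to 0.83 at day 14 against 0.91 to 1.18 at day 9. The endothelial and blood list (12 on the array), striated muscle (15), the Hox-cluster miRNAs (11), the epithelial miR-200 miRNAs (10) and the sensory cluster of miR-183 (6) had 0 members above background on any of the 6 arrays.

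Among the remaining lists, most members of the Sfmbt2 cluster, whose repeated hairpins give closely similar miRNAs with possibly shared probe signal, were not called: of 31 tested 7 fell, which at 22.6% is close to the 22.9% of all miRNAs, 0 rose and 24 were not called (median -0.01, and -0.28 to 0.00 with 6 other scalings or signal summaries). The largest were miR-466b-3p at -1.20, above background on 1 of 3 arrays at day 14, miR-467a-3p at -0.80, miR-669f-3p at -0.74 and miR-467d-3p at -0.71. The call of miR-467d-3p ended without day 14 replicate 1 or 2 or day 9 replicate 2 or 3 (-0.70 to -0.59), and its arrays read -4.13, -4.27 and -3.69 at day 14, against -3.39, -3.29 and -3.27 at day 9. The Dlk1-Dio3 imprinted cluster, active in many neurons, had 96 miRNAs on the array and 5 above background on any of the 6 arrays. Of its 6 tested members miR-770-3p was at least 1.38-fold higher and miR-3072-5p rose by 0.30, while miR-494-3p changed by -0.68 and miR-370-3p by -0.56. Each direction held 33.3% of the tested members, beside 31.4% higher and 22.9% lower over all miRNAs. miR-432, at chr12:109595006-109595028 on the plus strand, lies between miR-770-3p and miR-494-3p but is not on this list. The counts and shares given here leave it out, so they describe the list and not the whole locus. miR-3072-5p overlapped between the days, and its call ended without day 14 replicate 1 or 2 or day 9 replicate 2 or 3 (0.23 to 0.28), in the fit of the 6 arrays alone (adjusted p = 0.12, limma), without scaling and with 3 other scalings (0.01 to 0.14). miR-29a-3p, above background on 2 of 3 arrays at day 9, rose by 0.90 (SE 0.09), and miR-29b-3p, from the hairpin beside it, was below background on all 6. miR-24-3p rose by 0.28 and was the single call of 5 tested members of the miR-23/27/24 clusters, and in the miR-30 family miR-30d-5p rose by 0.39 and miR-30b-5p by 0.28, 2 of 8 tested. These shares of the 2 lists, 20% and 25%, were below the 31.4% of all miRNAs called higher. miR-384-5p, not counted in the 8, has the seed GUAAACA of miR-30a-5p, miR-30c-5p and miR-30e-5p, and was called higher at 0.72. The call of miR-30d-5p ended with 3 other scalings, where the change was 0.10 to 0.22, and without scaling. With median scaling miR-24-3p and miR-30b-5p turned to -0.00305 and -0.012, and the call of miR-30b-5p ended without day 14 replicate 2 or 3 or day 9 replicate 1 or 3 (0.21 to 0.28).

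Outside the lists, miR-101c read -2.45, -2.09 and -2.32 at day 14, against -3.75, -3.61 and -3.89 at day 9, and was 2.76-fold higher. miR-101a-3p rose by 0.68 and miR-101b-3p, of similar sequence, changed by -0.50. miR-3096b-3p read -0.03, -0.25 and -0.18 at day 14, against 1.14, 1.23 and 1.16 at day 9, 2.52-fold lower, while its other arm miR-3096b-5p was called higher at 0.41 on its brightest probe but changed by -0.39 on its second probe. It was the single called miRNA, of 101 with a second probe above background on the 6 arrays, whose probes differed in sign. miR-744-5p was 2.50-fold lower and miR-1949 was 2.48-fold lower. miR-1949 read -2.55, -2.87 and -2.71 at day 14, against -1.52, -1.35 and -1.34 at day 9. Of 35 hairpins with both arms tested, both arms were called for 12, in the same direction for 9 and in opposite directions for 3, miR-124, miR-149 and miR-3096b. The direction of the last rests on the probe chosen, since the second probe of miR-3096b-5p moved the same way as miR-3096b-3p. The decreases of miR-124-5p and miR-149-5p were not called with normexp or with a floor 4 times higher.

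To see where the change without morphogens differed from that with them, the change in treated cells over the same days was fitted from the treated arrays. The 2 changes share no array, but treated replicates 1 and 2 at day 14 and all treated day 9 arrays lie on the other slide. Of all 306 miRNAs, 108 rose in treated cells (35.3%) and 94 fell (30.7%). Of the 96 miRNAs that rose in control cells, 79 also rose in treated cells, 2 fell and 15 were not called there. Of the 70 that fell, 54 fell in treated cells, 5 rose and 11 were not called. The 133 calls in common are 80.1% of the calls in control cells and 65.8% of those in treated cells. The test of the difference itself, control change minus treated change, called 100 of 306 miRNAs (32.7%), 49 positive (16%) and 51 negative. Without the lone treated day 14 array on the control slide, so that each change lay within 1 slide, 95 were called, 91 of them shared. Without any scaling between arrays 14 were called.

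miR-132-3p, miR-129-2-3p and miR-129-5p rose in control cells and were not called higher in treated cells, and the differences passed the test. miR-132-3p rose by 1.84 in control cells and changed by -1.22 in treated cells, where the means were -2.87 at day 14 and -1.65 at day 9. The 2 changes were 3.06 apart (SE 0.17, adjusted p = 4.5e-08, limma). miR-129-2-3p rose by 2.14 in control cells and changed by -0.01 in treated cells, with means of -1.79 at day 14 and -1.78 at day 9. Its changes were 2.16 apart (SE 0.21, adjusted p = 5.4e-06, limma). miR-129-5p differed by 1.52 (SE 0.13, adjusted p = 2.0e-06, limma), against a change of 0.13 in treated cells, with its day 9 level at the floor in control cells. miR-129-1-3p rose in both, by 1.67 in control cells and 0.64 in treated cells, and differed by 1.03. miR-5097 overlapped between the days in control cells and changed by -1.34 in treated cells, a difference of 1.49 (SE 0.33). For miR-29b-3p, below background in control cells at both days, the fitted difference of 1.85 comes wholly from its change in treated cells. miR-322-5p differed by 1.30, with 1.06 in control cells and -0.24 in treated cells.

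In the other direction, miR-370-3p changed by -0.56 in control cells and by 0.89 in treated cells, a difference of -1.46 (SE 0.21, adjusted p = 1.6e-04, limma). miR-5622-3p differed by -1.30, miR-5105 by -1.24, miR-5109 by -1.19 and miR-1306-3p by -1.02, each higher at day 14 in treated cells. Some let-7 members rose less in control cells: let-7c-5p rose by 1.77 in control cells and by 2.57 in treated cells, a difference of -0.81 (SE 0.15, adjusted p = 0.0014, limma). let-7b-5p rose by 2.31 in control cells and by 2.64 in treated cells and did not pass (difference -0.33, SE 0.16, adjusted p = 0.13, limma). miR-137-3p rose in both, but it was below background on all treated day 9 arrays, so its changes are not compared here. The decreases of miR-18a-5p (difference -0.08, SE 0.15), miR-34b-5p (-0.02, SE 0.17) and miR-34c-5p (0.01, SE 0.15) were not called different (adjusted p = 0.77, 0.95 and 0.97, limma).

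**Figure D5:**
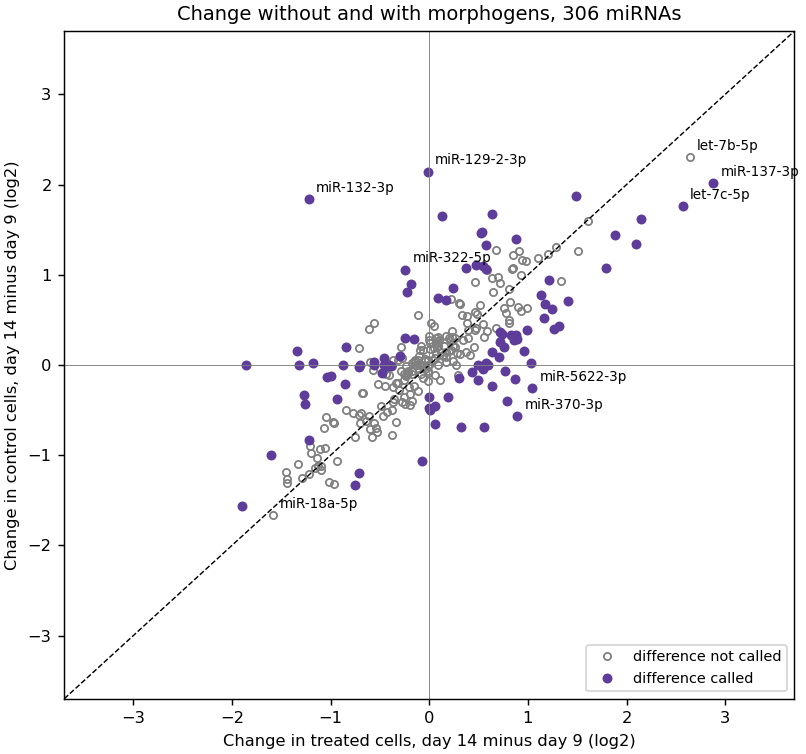
Log2 change from day 9 to day 14 in control cells (y axis) against that in treated cells (x axis), with 1 point per miRNA for the 306 tested. Filled points passed the test of the difference between the changes (100 miRNAs), open points did not, and the dashed line marks equal changes. miR-132-3p and miR-129-2-3p lie far above the line, miR-370-3p and miR-5622-3p below it, and let-7b-5p and miR-18a-5p near it.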

How the data were processed

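Small RNA from 15 samples in 5 groups of 3 was labelled with Cy3 and hybridised to single-colour Agilent SurePrint mouse miRNA arrays of release 18, with an array for each sample. The deposited scanner tables hold background-subtracted spot signals in units of intensity, made by Feature Extraction 11.0.1.1 per the file headers, with no normalization between arrays. Other columns used are, per the file headers, flags of another kind (other), 0 or 1, for spots above background, saturated and outlier spots. The deposited value table also holds intensity: linear, background-subtracted probe means without normalization or centring, since 73.4% to 83.7% of probes in 14 columns equal the scanner means within 0.1%. Its columns for replicates 1 and 2 of treated day 14 repeat each other (86.0% equal), and both counted as 1 replicate where those values were used. Its column medians were 0.222, 0.260 and 0.433 for control day 14, -0.0248, 0.0967 and 0.212 for control day 9, 0.697, 0.697 and 0.253 for treated day 14, 0.443, 0.546 and 0.384 for treated day 9, and 0.104, 0.217 and 0.0505 at day 5. limma 3.20.9 is named in the submitters' processing notes, which give it no role.

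For each of 2847 probes of 1122 mouse miRNAs the signal was averaged over its non-outlier spots. Arrays were scaled by their 75th percentile over the 353 probes above background in all 15, and a floor was set at -4.27 before values were taken as log2. At least 50% of a probe's spots had to carry the background flag for it to count as above background, and the brightest probe stood for a miRNA. Tested were the 306 miRNAs above background on all 3 arrays of any group; 284 of them were above it on at least 1 of the 6 control arrays. All 5 groups were fitted in limma 3.58.1 (R 4.3.3, the data.table package at 1.17.8, jsonlite 2.0.0; 10 residual and 3.06 prior degrees of freedom), two-sided, with Benjamini-Hochberg adjustment over the 306 and a threshold of 0.05. With 3 arrays a group, their number limits the precision. In 20 simulations of the control day 14 against day 9 comparison with 306 miRNAs, 80.5% of changes of 0.5, 96.0% of 1 and 99.8% of 2 (log2) were recovered, and 3.92% of calls were unchanged miRNAs.

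The arrays, lists and named miRNAs were chosen with earlier results of these data known. Named were the 12 largest increases and 12 largest decreases whose days did not overlap, up to 4 called members of each list, a set of neuronal and stem cell miRNAs, and the 5 largest differences from treated cells in each direction; further miRNAs named beside their seed, cluster or arm partners were chosen after their values were seen. The deviations of same-numbered day 14 and day 9 samples had correlations of -0.31, -0.54 and 0.05 across miRNAs. With 3 arrays a group these cannot show whether the numbers pair samples, and the labels do not say. The main fit did not pair them. Alternatives were other scalings, background, floor, filters, probe summaries, values, blocks and left-out arrays. The files hold no mean-signal column, so the background alternative, normexp with an offset of 50, used the median signal; this, and the scanner software's summed gene signal, were chosen after the data were seen. Sequences and positions are from RefSeq. Python 3.11.15 with numpy 2.4.6, pandas 2.3.3 and matplotlib 3.10.9 drew the figures.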

Additional observations from a re-analysis of the deposited data

Results flagged for a closer look

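The number of miRNAs whose change from day 9 to day 14 differed between control and treated cells was 100 of 306 by the test of that difference (limma, adjusted p below 0.05). The positive ones named, where the control change was above the treated change, were miR-132-3p at 3.06, miR-129-2-3p at 2.16, miR-29b-3p at 1.85, miR-129-5p at 1.52 and miR-5097 at 1.49 (log2). miR-29b-3p was below background in control cells at both days. The negative ones were miR-370-3p at -1.46, miR-5622-3p at -1.30, miR-5105 at -1.24, miR-5109 at -1.19 and miR-1306-3p at -1.02.

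The arrays also carry probes for viral miRNAs, which no comparison used. Of 57 viral names, 4 were above background on all 6 control arrays, and their changes from day 9 to day 14 had a median of 0.53 (log2), against 0.06 for the 306 mouse miRNAs tested.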

How the results depend on the processing

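Against 166 calls (96 higher, 70 lower), the fit of the 6 arrays alone gave 157 (149 shared), and the replicate number as a block gave 166 in the fit of all arrays and 148 in that of the 6; slide as a block gave 167. The share of calls that were higher, 57.8%, was 43.8% with the all-probe percentile, 36.7% with median scaling (66 higher, 114 lower) and 44.1% with the summed gene signal (71 higher, 90 lower), and the median of all miRNAs was -0.02, -0.10 and -0.02. Calls fell to 91 (59 higher, 32 lower) without scaling, 94 (54 and 40) with normexp and 96 (61 and 35) with a floor 4 times higher, where dim miRNAs such as miR-129-5p, miR-138-5p, miR-34b-5p and miR-302d-3p are all at the floor; in the 191 miRNAs above background on all 15 arrays 120 were called, 62 higher. Leaving out 1 control array gave 150 to 161 calls, 86 to 93 higher and 62 to 68 lower. miR-24-3p and miR-30b-5p turned to -0.00305 and -0.012 with median scaling.

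The difference from treated cells (100 calls, 49 positive, 51 negative) gave 97 calls with the replicate block, 95 with slide as a block, 80 (25 positive) with the all-probe percentile, 14 (5 and 9) without scaling, 21 (8 and 13) with normexp, 73 (31 negative) with the higher floor, of which 55 were shared and 2, let-7i-5p and miR-137-3p, turned to 0.54 and 0.47 from below 0, 67 (32 negative) over all 1122 miRNAs and 57 (24 and 33) over the 191. Leaving out 1 array gave 81 to 110 calls, 38 to 55 positive and 42 to 55 negative. The causes were not tested. Besides miR-9-5p, miR-218-5p, miR-302d-3p and miR-181a, b and c, calls ended without scaling for miR-152-3p, miR-494-3p, miR-370-3p, miR-219-5p, miR-30d-5p, miR-30b-5p, miR-24-3p, miR-21-5p, miR-216a-5p, miR-367-3p, miR-467d-3p, miR-3072-5p, miR-5622-3p and miR-5109, and with normexp those of dim miRNAs such as miR-7b-5p (0.37), miR-338-3p (0.22), miR-29a-3p (0.22), miR-367-3p (-0.24) and miR-106b-3p (-0.34). miR-129-5p was not called different from treated cells with normexp (0.67) or the higher floor. For the 163 miRNAs with a second probe above background on the 6 arrays, the probes' changes differed in sign for 9, and for 1 of the 101 among these that were called, miR-3096b-5p.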

Other observations

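The change from day 9 to day 14 showed little correlation with GC content or with brightness, but calls in the highest GC group leaned toward higher. All 306 tested miRNAs share the same 6 arrays, and across them the correlation of the log2 change with the mean level was 0.045 (Pearson) and 0.094 (Spearman). Across the 227 miRNAs with a RefSeq sequence, the correlation of the change with GC content was 0.058 (Pearson) and 0.062 (Spearman). Among those with a GC content of 62.5% or more, 22 of 53 miRNAs were called higher and 6 lower, with a median change of 0.20. Among those with 27.3% to 40.9%, 24 of 63 were called higher and 15 lower, with a median of 0.07.

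A few other miRNAs outside the lists rose in the same comparison. miR-2137 read 4.62, 4.51 and 4.35 at day 14, against 3.30, 3.32 and 3.40 at day 9, and was 2.22-fold higher. miR-5131 was 2.64-fold higher and miR-2182 was 2.34-fold higher. miR-22-3p, at -1.42, -1.38 and -1.41 at day 14 against -2.43, -2.42 and -2.55 at day 9, was 2.09-fold higher. These miRNAs were chosen after their values were seen.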
